A study of Mus musculus with 10 samples.

Results

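The keratin genes were taken from the probe annotation as every gene whose symbol is Krt followed by a number, with or without a letter after it. Of 18193 genes on the arrays, 48 were keratins, read by 61 probe sets annotated to a single keratin out of 45037 probe sets tested. For each gene, the probe set of highest mean signal over all tumors stood for it, and the annotation alone chose the members. A further probe set, annotated to both Krt17 and Krt14, was left out. Of 54 keratin symbols in the mouse gene table, 6 (Krt9, Krt39, Krt40, Krt74, Krt87 and Krt90) were not analysed here. The members fall into 4 luminal, 3 basal, 36 skin or hair and 5 other keratins. Each array held the RNA of 1 whole mammary tumor of a female FVB/N-Tg(MMTVneu) mouse (Tg-neu). In these mice the MMTV promoter drives the neu oncogene in the mammary epithelium, and tumors arise spontaneously. From the first palpable tumor, mice received intraperitoneal injections for 6 weeks, 3 per week, of lovastatin (Lov; 10 mg/kg), an inhibitor of HMG-CoA reductase, or of the ethanol vehicle (Vhcl). The results text of the study gives the same dose at intervals of 3 days. The 5 Lov-treated tumors were A19, A48, A50, A55 and AB10, and the 5 Vhcl-treated tumors were A45, A49, A54, A59 and AB11. All of them carried the transgene. A free-text label calls the Vhcl tumors untreated, and the labels do not say which mouse each tumor came from, so p-values measure the spread between these tumors alone.

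Keratins are the intermediate filament proteins of epithelial cells. A filament is built from pairs of an acidic type I and a basic type II keratin, and which pair a cell makes depends on its epithelium and its layer. In the mammary gland, the luminal cells that face the duct and make milk carry Krt8 with Krt18, together with Krt19 and Krt7, whereas the basal, contractile myoepithelial cells carry Krt5 with Krt14, and Krt17. The epidermis, the cornea, the oral lining and the hair follicle use the remaining sets. The 48 genes comprised 25 of type I, 22 of type II and Krt88, which was given no type, and 24 of them lie on chromosome 11 and 24 on chromosome 15. Krt18, although of type I, lies beside Krt8 on chromosome 15.

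The 250 bases before the transcription start are shown for Krt7, the keratin of largest difference between the groups, for the filament partners Krt8 and Krt18, and for Krt10, an epidermal keratin, as a contrast to these luminal genes. The sequences are from RefSeq, build GRCm38.p6, and read 5′ to 3′ on the strand of the gene. They lie at chr15:101412153-101412402 on the plus strand for Krt7, at chr15:102004343-102004592 on the minus strand for Krt8, at chr15:102027966-102028215 on the plus strand for Krt18 and at chr11:99389365-99389614 on the minus strand for Krt10. Capitals mark the motifs searched on both strands, namely TATAAA as the core of a TATA box, GGGCGG as a GC box, CCAAT as the site of its namesake factors, and TGANTCA for the AP-1 factors.
Krt7: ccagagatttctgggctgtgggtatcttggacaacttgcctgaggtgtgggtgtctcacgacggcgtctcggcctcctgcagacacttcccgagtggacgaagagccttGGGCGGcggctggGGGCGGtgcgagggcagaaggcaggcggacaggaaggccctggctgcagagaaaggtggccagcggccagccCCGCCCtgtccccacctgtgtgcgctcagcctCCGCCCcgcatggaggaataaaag
Krt8: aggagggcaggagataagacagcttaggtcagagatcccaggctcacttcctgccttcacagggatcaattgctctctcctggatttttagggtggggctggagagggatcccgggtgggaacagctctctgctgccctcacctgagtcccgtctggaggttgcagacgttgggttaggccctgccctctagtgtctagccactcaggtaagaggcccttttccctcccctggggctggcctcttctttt
Krt18: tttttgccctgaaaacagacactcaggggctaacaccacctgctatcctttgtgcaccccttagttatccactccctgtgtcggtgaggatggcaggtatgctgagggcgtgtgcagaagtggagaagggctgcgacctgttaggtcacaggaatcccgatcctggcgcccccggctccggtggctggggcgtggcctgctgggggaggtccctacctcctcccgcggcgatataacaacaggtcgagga
Krt10: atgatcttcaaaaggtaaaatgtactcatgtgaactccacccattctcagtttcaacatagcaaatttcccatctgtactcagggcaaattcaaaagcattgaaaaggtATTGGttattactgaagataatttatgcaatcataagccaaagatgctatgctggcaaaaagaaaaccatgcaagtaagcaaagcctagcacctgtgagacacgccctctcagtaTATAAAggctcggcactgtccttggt
The Krt7 window held 4 GC boxes, of which the first 2 read on the plus strand of the gene and the last 2 on its minus strand, where the motif appears as its reverse complement. Krt8 and Krt18 held none of these motifs. Krt10 held TATAAA at 26 to 21 bases before its start and CCAAT on the minus strand at 141 to 137 bases before it. No printed match overlapped another. Promoters were found for 32 of the 48 keratins, Krt19 not among them. TATAAA stood in 15 of 24 skin or hair keratins, in 0 of 3 luminal and 0 of 2 basal keratins and in 1 of 3 others, against 12.4% of all 32851 promoter windows of this length. GGGCGG stood in Krt7 and Krt75 only of the 32, against 32.7% of all windows, CCAAT in 14 of the 32, against 33.8%, and TGANTCA in Krt13 alone, against 6.75%. These are matches of letters and not measured binding sites.

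The authors had deposited log2 signals made by Robust Multi-array Analysis (RMA), and array medians lay between 4.97 and 5.05. Signals of different probe sets are not comparable amounts, so each keratin is compared between tumors only. As a check of the labelled tissue, Epcam, an adhesion molecule of luminal cells, read 12.11 to 12.61 and the milk protein Csn3 14.04 to 14.34 over all arrays. Signals of genes typical of other tissues were uneven between tumors. The mean of 7 salivary gland genes was 11.50 in Vhcl AB11 and 7.95 in Vhcl A59, against 4.97 to 6.56 in the Lov-treated tumors. Of these 7 genes, 6 were on the lower side in Lov-treated tumors and all 6 by at least 2-fold, with a median log2 difference of -2.43. Of all probe sets, 47.0% were on the lower side and 0.515% differed by at least 2-fold in either direction. Dcpp1, a secreted protein of salivary glands, read 6.38, 4.57, 4.43, 4.58 and 4.32 in Lov A19, A48, A50, A55 and AB10, against 8.04, 6.27, 4.65, 10.54 and 10.68 in Vhcl A45, A49, A54, A59 and AB11 (log2 difference -3.18, standard error 1.03; limma, unadjusted p = 0.0099, adjusted p = 0.919; exact permutation test, 2-sided p = 0.040). Prol1, a proline-rich protein of tear and salivary glands, was lower as well (log2 difference -2.55; limma, unadjusted p = 0.010, adjusted p = 0.919) but was highest in Vhcl A49, at 9.51. The mean of 8 skeletal muscle genes exceeded 8 in Lov A55, Vhcl A54 and Vhcl A59. Of 8 leukocyte genes, 1 was higher and 0 were lower at an unadjusted limma p under 0.05, where 3.13% and 2.16% of all probe sets were. The higher gene was Csf1r, a receptor of macrophages, at 9.90 to 10.70 in Lov-treated and 9.83 to 10.12 in Vhcl-treated tumors (log2 difference 0.43; limma, adjusted p = 0.928). In whole tumors, fewer cells of a type and less RNA per cell cannot be told apart.

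The comparison of Lov- with Vhcl-treated tumors asked which keratins differ after treatment. At an unadjusted p under 0.05 (limma's moderated test, 2-sided), Krt7 of the luminal group and Krt31 of the hair shaft were lower and Krt73 of the hair root sheath was higher in Lov-treated tumors. These 3 of 48 keratins compare with 5.28% of all probe sets at that threshold, 3.13% higher and 2.16% lower. After Benjamini-Hochberg adjustment, 0 keratins passed an FDR of 0.05 or 0.25, where 0.0% of all probe sets passed either, and the lowest adjusted p of a keratin was 0.932 by limma. A difference of at least 2-fold was reached by Krt7 and Krt19, both lower, where 0.515% of all probe sets reached it. With an unadjusted p under 0.02 as well, 0 keratins were left, as against 0.258% of all probe sets. Over the family, the median log2 difference (Lov minus Vhcl) was -0.03, beside 0.01 over all probe sets, and 27 of 48 keratins (56.2%) were on the lower side in Lov-treated tumors, 20 on the higher and 1 on neither, beside 47.0% of all probe sets on the lower side. Without Vhcl A59 and Vhcl AB11, the tumors of highest salivary signal, 7 keratins had an unadjusted p under 0.05, all lower, when 7.29% of all probe sets did. These were Krt7, Krt8, Krt18, Krt2, Krt31, Krt36 and Krt77. Without Lov A19 and Vhcl AB11, 2 keratins had such a p, Krt7 and Krt18, both lower, when 7.72% of all probe sets did. The count was 1 without Lov A55, Lov AB10, Vhcl A49 or Vhcl A54, each left out alone.

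**Figure D1:**
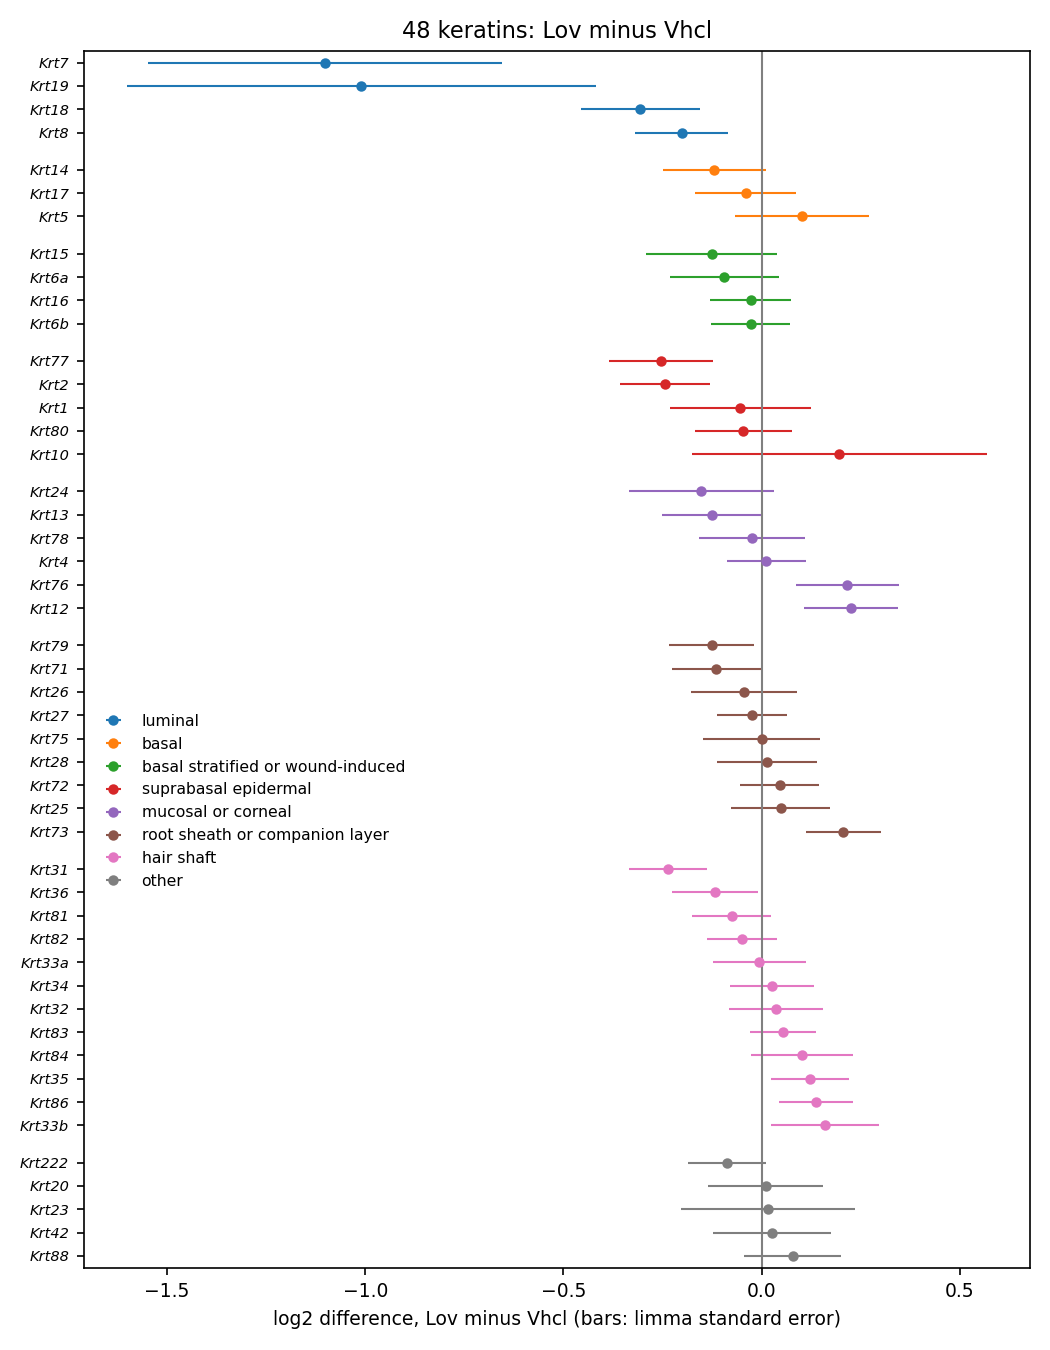
Log2 difference (x axis, Lov minus Vhcl) of each of the 48 keratins (rows, grouped by class in color), with limma's standard error as bars. Krt7 and Krt19 lie near -1, Krt18 and Krt8 at -0.31 and -0.20, and all 36 skin or hair keratins lie between -0.25 and 0.23.

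All 4 luminal keratins were lower on average in Lov-treated tumors, with a median log2 difference of -0.66. Krt7, a type II keratin of simple glandular and ductal epithelia, had log2 signals of 8.61, 8.15, 7.78, 7.07 and 6.26 in Lov A19, A48, A50, A55 and AB10. It had 8.14, 8.85, 9.28, 9.43 and 7.68 in Vhcl A45, A49, A54, A59 and AB11. The groups overlapped, since Lov A19 lay above Vhcl A45 and Vhcl AB11, while Lov A55 and AB10 lay below every Vhcl-treated tumor. The means were 7.57 ± 0.93 in Lov-treated and 8.68 ± 0.75 in Vhcl-treated tumors (SD, n = 5 each), a ratio of 0.466. The log2 difference was -1.10 with a standard error of 0.45 (limma, unadjusted p = 0.031, adjusted p = 0.932), and an exact permutation test of the means gave a 2-sided p of 0.079. The difference was -0.77 without Lov AB10, -0.98 without Lov A55, -0.91 without Vhcl A59, -0.95 without Vhcl A54 and -1.06 without Vhcl A49, each with an unadjusted p above 0.05. Without the remaining tumors, each in turn, it stayed below that threshold, and the lowest value was -1.36. When the 3′ minus 5′ signal of beta-actin, a measure of RNA degradation, was a covariate, the difference was -0.91 (limma, unadjusted p = 0.094), and without moderation of the variances the unadjusted p was 0.072, so that neither passed. Krt7 was read by 1 probe set, whose name carries the letter a as a mark of several transcripts. Names with the letters a, s or x were left out together in the fit without shared probe sets, so Krt7 had no value there. Salivary gland genes shared the group direction of the luminal keratins, since 6 of 7 were lower in Lov-treated tumors. Among Vhcl-treated tumors they shared the order of the luminal keratins only in part. Vhcl AB11 had the highest salivary mean (11.50) and the lowest luminal keratin median of the Vhcl-treated tumors (9.73). Vhcl A54 had the lowest salivary mean of that group (5.47) and the highest luminal keratin median (10.7). Vhcl A59, A49 and A45 stood in the same order for both, with salivary means of 7.95, 6.05 and 6.02. Their luminal keratin medians were 10.695, 10.405 and 10.185. Without Vhcl A59 and AB11, the median log2 difference over the luminal keratins was -0.43. Of these genes, only Krt19 then had a smaller difference (-0.37, against -1.01 over all tumors). The differences of Krt7, Krt18 (-0.49, against -0.31) and Krt8 (-0.31, against -0.20) were larger than over all tumors. The part of salivary tissue in these differences was not tested.

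Krt8 and Krt18, the filament partners of simple epithelia, had high signals that spread less than those of Krt7 and Krt19. Their SD over the 10 tumors was 0.20 and 0.29, at the percentiles 44.8 and 72.8 of all probe sets. Krt8 read 11.71, 11.96, 11.98, 11.88 and 11.60 in Lov A19, A48, A50, A55 and AB10, against 12.23, 11.96, 12.21, 11.96 and 11.78 in Vhcl A45, A49, A54, A59 and AB11. Krt18 read 12.06, 12.31, 12.32, 12.07 and 11.78 in the same Lov-treated tumors, against 12.63, 12.44, 12.73, 12.17 and 12.10 in the Vhcl-treated ones. For both genes Vhcl A45 and A54 were the highest tumors and Lov AB10 the lowest, and the groups overlapped in between. The log2 difference of Krt8 was -0.20 with a standard error of 0.12 (limma, adjusted p = 0.971; exact permutation test, 2-sided p = 0.127). That of Krt18 was -0.31 with a standard error of 0.15 (limma, adjusted p = 0.956; exact permutation test, 2-sided p = 0.095). All 3 probe sets of Krt8 were lower on average in Lov-treated tumors, by log2 differences of -0.28 to -0.14, and they correlated with each other at r of 0.82 to 0.99 over the 10 tumors. Without Vhcl A59 and AB11, the unadjusted limma p was 0.038 for Krt8 (log2 difference -0.31) and 0.0071 for Krt18 (-0.49). Without Lov A19 and Vhcl AB11, that p was under 0.05 for Krt18 and not for Krt8.

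The levels of Krt8 and Krt18 moved together from tumor to tumor. Over the 10 tumors, Pearson's r was 0.95 and Spearman's rho 0.94 (permutation tests with 100000 resamples, 2-sided, adjusted over 12 pairs, p = 0.00096 and 0.0020). Without the tumors farthest from the Krt8 median, Lov AB10 and Vhcl A45, r was 0.90. With the group means removed, r was 0.93 (adjusted permutation p = 0.0031), and leaving out each tumor in turn gave 0.92 to 0.96. The points share the normalization of the arrays, and each tumor adds 1 point. Of the other 11 pairs, 0 passed an adjusted permutation p of 0.05 on the signals. The next highest correlation was between Krt8 and Epcam, with r of 0.63 (rho 0.50, adjusted permutation p = 0.228 and 0.385), or 0.83 with group means removed (adjusted permutation p = 0.039). The basal partners Krt5 and Krt14 gave r of 0.55 and rho of 0.58 (adjusted permutation p = 0.228 and 0.385), and 0.82 when each gene was the mean of all its probe sets (adjusted permutation p = 0.017). The epidermal partners Krt1 and Krt10 gave 0.52 (rho 0.15), and the wound-induced partners Krt6a and Krt16 gave 0.18 (rho 0.45), each with an adjusted permutation p above 0.05. Krt1, Krt14 and Krt16 lay below the median of their own array in all 10 tumors, and Krt6a in all but Vhcl A59. The Krt6a probe sets correlated with each other at r of -0.60 to 0.51. The part of dim signal in the lower r of these pairs was not tested.

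**Figure D2:**
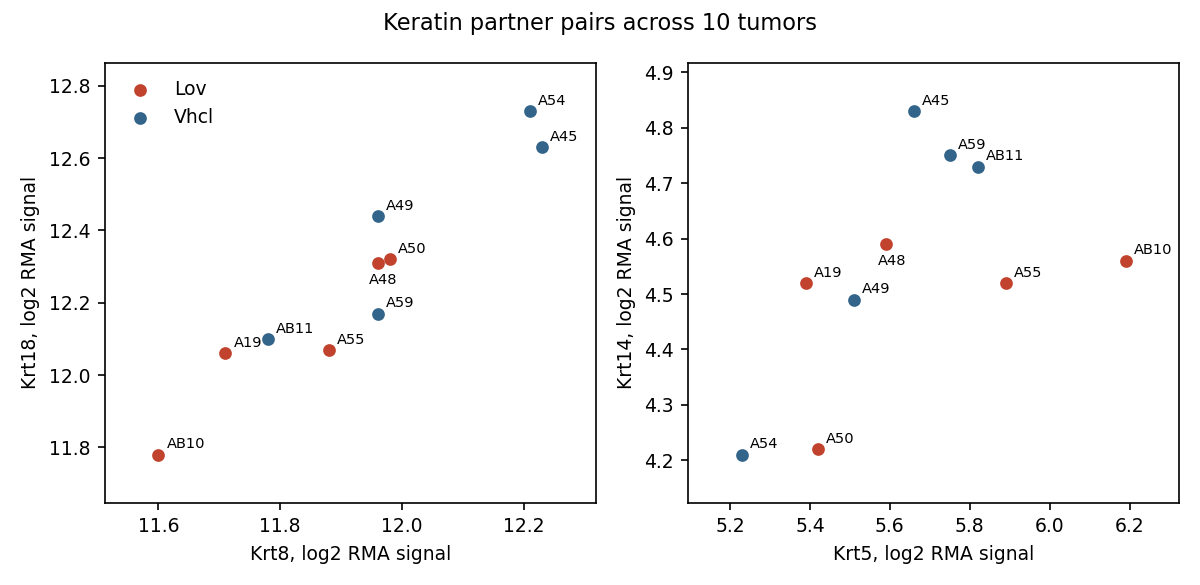
Log2 RMA signals of Krt18 against Krt8 (left) and of Krt14 against Krt5 (right) in the 5 Lov-treated and 5 Vhcl-treated tumors, 1 labelled point per tumor. The left points follow a line (r = 0.95), with Lov AB10 at its low end and Vhcl A54 and A45 at its high end, and the right ones scatter (r = 0.55).

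Krt19, a type I keratin of luminal and ductal cells, was even among Lov-treated tumors and uneven among Vhcl-treated ones. It read 4.95, 4.67, 4.78, 4.88 and 4.75 in Lov A19, A48, A50, A55 and AB10, against 4.79, 6.46, 4.27, 8.24 and 5.32 in Vhcl A45, A49, A54, A59 and AB11. Vhcl A59, A49 and AB11 exceeded every Lov-treated tumor, whereas Vhcl A54 was the lowest of all. Only these 3 higher tumors lay above the median of their own array. With no call of detection, the even and dim signals of the Lov-treated tumors need not mean steady expression. The mean was 4.81 ± 0.11 in Lov-treated and 5.82 ± 1.58 in Vhcl-treated tumors (SD, n = 5 each). The log2 difference was -1.01 with a standard error of 0.59 (limma, adjusted p = 0.971; exact permutation test, 2-sided p = 0.238). It was -0.40 without Vhcl A59 and -0.37 without Vhcl A59 and AB11, whereas it was -1.40 without Vhcl A54 (limma, unadjusted p = 0.029).

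Milk genes were set beside Krt19, and they did not all follow it. Wap, a whey protein made by secretory luminal cells and picked here after its values were seen, read 7.19, 5.78, 5.76, 5.91 and 5.57 in Lov A19, A48, A50, A55 and AB10. In Vhcl A45, A49, A54, A59 and AB11 it read 5.29, 10.28, 7.18, 9.10 and 5.77, so that Vhcl A49 and A59, the tumors of highest Krt19, stood above all others. Csn2, which encodes beta-casein, was likewise highest in these tumors, at 13.11 and 13.34, with 11.03 to 12.43 in the Lov-treated tumors and 10.82 to 12.17 in the other Vhcl-treated ones. Csn1s1, which encodes an alpha-casein, was highest in them too, at 13.60 and 13.79, but Lov A48 and A50 came close at 13.57 and 13.56. Csn3, which encodes kappa-casein, was lowest in Vhcl A49 (14.04) and highest in Vhcl A59 (14.34). Lalba, alpha-lactalbumin, also picked after its values were seen, read 11.80, 11.79, 12.87, 12.29 and 12.11 in Lov A19, A48, A50, A55 and AB10, against 10.22, 12.28, 11.06, 10.78 and 11.83 in Vhcl A45, A49, A54, A59 and AB11. It was higher in Lov-treated tumors (log2 difference 0.94, standard error 0.35; limma, unadjusted p = 0.022, adjusted p = 0.928), with overlap, and Vhcl A59 was among the lowest. Of these 5 genes, 1 was higher and 0 were lower at an unadjusted limma p under 0.05, where 3.13% and 2.16% of all probe sets were. The median log2 difference of the 5 genes was -0.46. The mean of these genes was 12.66 in Vhcl A49 and 12.27 in Vhcl A59, but 11.19 in Vhcl AB11, the third tumor for Krt19, against 11.04 to 11.64 in Lov-treated tumors. The part of milk or salivary genes in the Krt19 values was not tested. Krt7 and Krt19 gave r of 0.47 and rho of 0.24 over the 10 tumors (adjusted permutation p = 0.228 and 0.615), and r was 0.07 without Lov AB10 and Vhcl A59.

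**Figure D3:**
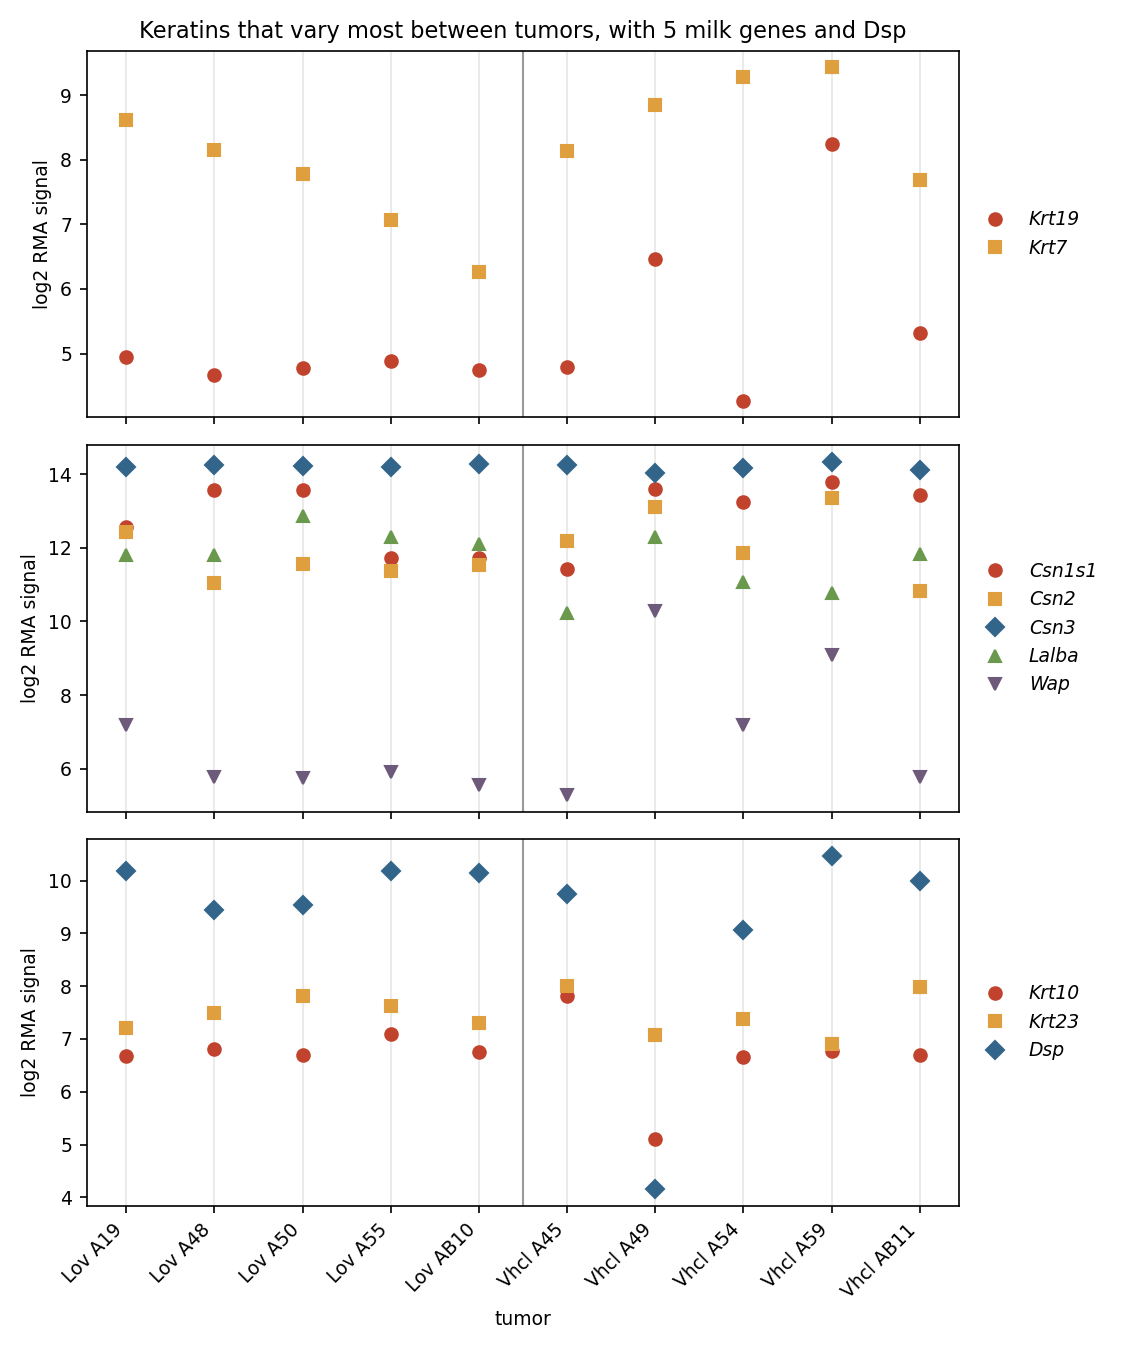
Log2 RMA signals in each tumor (x axis, Lov-treated left, Vhcl-treated right) of Krt19 and Krt7 (top), of 5 milk genes (middle), and of Krt10 and Krt23 with the desmosome gene Dsp (bottom). Krt19 is highest in Vhcl A59 (8.24) and A49 (6.46), where Wap and Csn2 are also highest while Lalba is not, and Krt10 (5.11) and Dsp (4.16) are both lowest in Vhcl A49.

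The 3 basal keratins differed little between the groups, with a median log2 difference of -0.04 and 0 of 3 at an unadjusted p under 0.05. Krt14 and Krt17 lay below the median of their own array in all 10 tumors, and Krt5 lay above it in all 10. No call of detection was made, so small differences at dim signals need not mean steady expression. Krt5, the type II keratin of basal and myoepithelial cells, read 5.39, 5.59, 5.42, 5.89 and 6.19 in Lov A19, A48, A50, A55 and AB10, against 5.66, 5.51, 5.23, 5.75 and 5.82 in Vhcl A45, A49, A54, A59 and AB11. The ranges overlapped in part, with Lov AB10 the highest and Vhcl A54 the lowest. Lov AB10 and A55 lay above every Vhcl-treated tumor, and Vhcl A54 below every Lov-treated one. Krt5 had a log2 difference of 0.10 with a standard error of 0.17 (limma, adjusted p = 0.990; exact permutation test, 2-sided p = 0.619). Krt14, its type I partner, read 4.52, 4.59, 4.22, 4.52 and 4.56 in the Lov-treated tumors in the same order, against 4.83, 4.49, 4.21, 4.75 and 4.73 in the Vhcl-treated ones. Lov A50 and Vhcl A54 were low in both groups, and the log2 difference was -0.12 with a standard error of 0.13 (limma, adjusted p = 0.988; exact permutation test, 2-sided p = 0.405). A second Krt14 probe set gave 0.25, with Lov AB10 at 5.32 and the other tumors at 4.06 to 4.63, and the third gave -0.03. Krt17, which basal cells and wounded epithelium make, read 3.06 to 3.53 in Lov-treated and 2.96 to 3.50 in Vhcl-treated tumors. Its log2 difference was -0.04 with a standard error of 0.13 (limma, adjusted p = 0.996; exact permutation test, 2-sided p = 0.762).

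Defining genes of the myoepithelial layer were set beside the basal keratins. Acta2, smooth muscle actin, read 8.30 to 9.60 in Lov-treated and 8.99 to 9.40 in Vhcl-treated tumors, and its r with Krt14 was 0.23 (rho 0.09, adjusted permutation p = 0.616 and 0.800). Trp63, the transcription factor of basal epithelial cells, gave negative correlations with Krt14 (r -0.57, rho -0.46) and Krt5 (r -0.47, rho -0.42), neither past the threshold (adjusted permutation p = 0.228 for each r and 0.385 for each rho). Of 8 myoepithelial genes, 1 was higher and 0 were lower at an unadjusted limma p under 0.05, where 3.13% and 2.16% of all probe sets were. The median log2 difference of the 8 was -0.03.

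**Figure D4:**
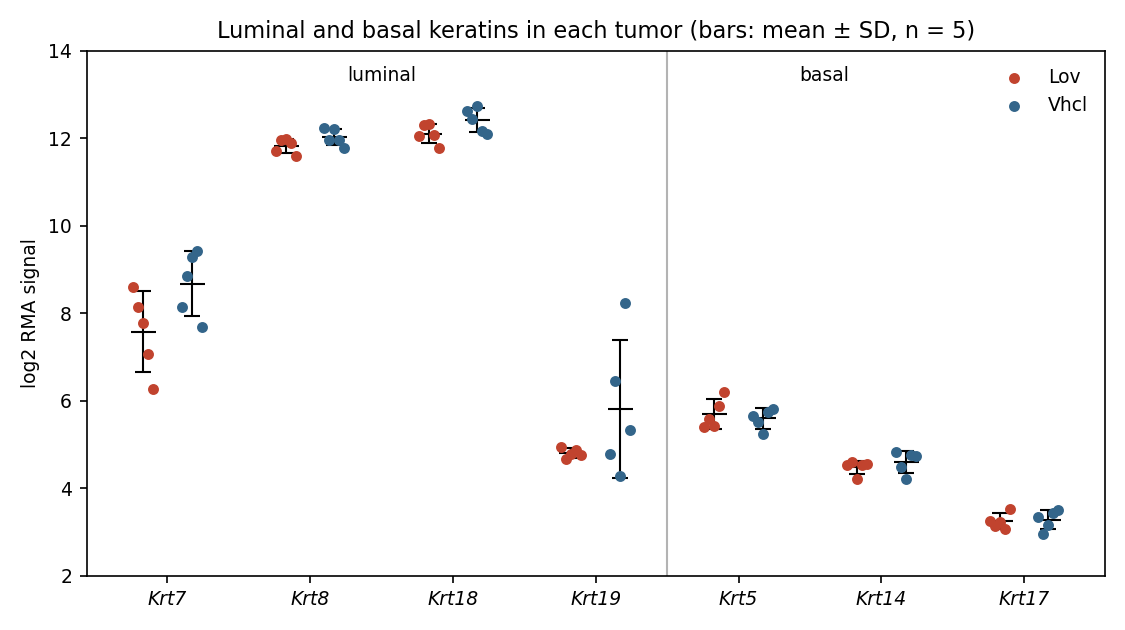
Log2 RMA signal (y axis) of the 4 luminal and 3 basal keratins in each Lov-treated (left of each pair) and Vhcl-treated tumor, with mean ± SD (n = 5 per group) as bars. The points of the groups overlap for every gene, and Krt19 spreads from 4.27 to 8.24 among Vhcl-treated tumors.

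The 36 skin or hair keratins had a median log2 difference of -0.02, with 15 positive, 20 negative and 1 equal to 0 (Lov minus Vhcl), and all 36 differences were smaller than 0.3. The 4 basal stratified or wound-induced keratins had a median of -0.06, the 5 suprabasal epidermal ones -0.05, the 6 mucosal or corneal ones -0.01 and the 12 of the hair shaft 0.03. Of the 9 keratins of the root sheath or companion layer, 4 were on the higher side, 4 on the lower and 1 on neither. Of the 36, 21 lay below the median of their own array in all 10 tumors, and no call of detection was made here. Krt31, Krt73, Krt2, Krt12 and Krt1, described next, were among these 21.

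Krt31, a type I keratin of the hair cortex, read 4.26, 4.43, 4.46, 4.43 and 4.61 in Lov A19, A48, A50, A55 and AB10, against 4.68, 4.69, 4.71, 4.46 and 4.83 in Vhcl A45, A49, A54, A59 and AB11. Only Lov AB10 and Lov A50 reached the level of the lowest Vhcl-treated tumor, A59. The log2 difference was -0.24 with a standard error of 0.10 (limma, unadjusted p = 0.033, adjusted p = 0.932; exact permutation test, 2-sided p = 0.024). The unadjusted p exceeded 0.05 when A19 (log2 difference -0.19), A48, A55, A45, A49, A54 or AB11 (-0.20) was left out, and the difference stayed between -0.29 and -0.19 whichever tumor was left out. Krt73, a type II keratin of the inner root sheath, read 4.66, 4.84, 4.91, 4.68 and 4.93 in the Lov-treated tumors in the same order, against 4.69, 4.53, 4.65, 4.68 and 4.44 in the Vhcl-treated ones. Lov A48, A50 and AB10 lay above every Vhcl-treated tumor, and Lov A19 and A55 among them. The log2 difference was 0.21 with a standard error of 0.09 (limma, unadjusted p = 0.049, adjusted p = 0.939; exact permutation test, 2-sided p = 0.056), and it was past the unadjusted threshold in 3 of 10 fits that left out 1 tumor. It was not past that threshold without A48, A50, AB10, A49, A54, A59 or AB11, with log2 differences of 0.17 to 0.23.

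Krt2, a type II keratin of upper epidermal layers, was the 1 keratin of 48 whose groups did not overlap, which held for 0.602% of all probe sets. It read 2.50, 2.36, 2.60, 2.59 and 2.51 in Lov A19, A48, A50, A55 and AB10, against 3.15, 2.64, 2.69, 2.66 and 2.64 in Vhcl A45, A49, A54, A59 and AB11. Vhcl A45 stood apart, and the other Vhcl-treated tumors lay just above the highest Lov-treated one, at a mean signal in the lowest 1.43% of all probe sets. Krt2 differed by -0.24 on the log2 scale with a standard error of 0.11 (limma, adjusted p = 0.946; exact permutation test, 2-sided p = 0.00794, the lowest value possible with 252 assignments of the tumors), and it was -0.15 without Vhcl A45. Krt77, another epidermal keratin, read 4.39 to 4.56 in Lov-treated and 4.38 to 5.12 in Vhcl-treated tumors (log2 difference -0.25, standard error 0.13; limma, adjusted p = 0.968). Krt12, the type I keratin of the cornea, read 3.24 to 3.63 in Lov-treated and 2.90 to 3.34 in Vhcl-treated tumors (log2 difference 0.23, standard error 0.12; limma, adjusted p = 0.969). The groups overlapped for both genes.

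Krt10, the type I keratin of differentiating epidermis, varied most among the skin or hair keratins. It read 6.67, 6.82, 6.70, 7.10 and 6.76 in Lov A19, A48, A50, A55 and AB10, against 7.82, 5.11, 6.66, 6.78 and 6.70 in Vhcl A45, A49, A54, A59 and AB11. Vhcl A45 was the highest and Vhcl A49 the lowest tumor, with the rest between 6.66 and 7.10. Its log2 difference was 0.20 with a standard error of 0.37 (limma, adjusted p = 0.992; exact permutation test, 2-sided p = 0.651), and it was -0.18 without Vhcl A49. Vhcl A49 was also the lowest tumor for Dsp, desmoplakin, the protein that ties keratin filaments to desmosomes. Dsp read 10.18, 9.45, 9.53, 10.18 and 10.14 in Lov A19, A48, A50, A55 and AB10, against 9.75, 4.16, 9.06, 10.47 and 9.99 in Vhcl A45, A49, A54, A59 and AB11. The other Dsp probe sets were lowest in Vhcl A49 too, at 4.25 and 2.96, with 5.16 or more and 7.42 or more elsewhere. Krt1, the type II partner of Krt10, was highest in Vhcl A45 at 4.76, against 3.74 to 4.18 in Lov-treated and 3.78 to 4.02 in the other Vhcl-treated tumors. Its log2 difference was -0.05, with a standard error of 0.18 (limma, adjusted p = 0.997), and it was 0.12 without Vhcl A45. Krt24, a type I keratin, was highest in Vhcl AB11 at 5.59, with 4.46 to 5.03 in Lov-treated tumors (log2 difference -0.15, standard error 0.18; limma, adjusted p = 0.988), and the difference was 0.02 without Vhcl AB11.

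Of the 5 keratins outside these classes, Krt23, a type I keratin, read 7.21, 7.49, 7.81, 7.62 and 7.30 in Lov A19, A48, A50, A55 and AB10, against 8.0, 7.08, 7.38, 6.90 and 7.99 in Vhcl A45, A49, A54, A59 and AB11. Its Vhcl-treated tumors spread on both sides of the Lov-treated ones (log2 difference 0.02, standard error 0.22; limma, adjusted p = 0.998). Krt42 read 7.20 to 7.62 in Lov-treated and 7.07 to 7.81 in Vhcl-treated tumors (log2 difference 0.03, standard error 0.15; limma, adjusted p = 0.998). The probe set used for Krt42 is marked by its name as one that can bind several transcripts, and its r with the other Krt42 probe set was -0.07 over the tumors. Of the 48 chosen probe sets, 11 carry the letter s, x or a in their names, and these marks were treated alike here. The letter was a for Krt7, Krt8 and Krt10, x for Krt14 and Krt42, and s for Krt12.

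Most keratin signals varied little from tumor to tumor. Of the 48 keratins, 24 lay below the median of their own array in all 10 tumors and 12 above it in all 10. No call of detection was made, so a small SD at dim signals need not mean steady expression. The SD over the 10 tumors was below the median of all probe sets (0.21) for 32 of 48 keratins, and it exceeded 0.5 for Krt19 (1.18), Krt7 (0.98) and Krt10 (0.66). These lay at the percentiles 99.6, 99.4 and 97.6 of the SD over all probe sets. In contrast, the SD of Krt18 was 0.29 and that of Krt8 0.20. Lov AB10 had the highest signal of all tumors for 16 of 48 keratins, where 16.7% of all probe sets were highest there. Vhcl A45 was the highest for 9 keratins, where 13.4% of all probe sets were, and Vhcl A49 the lowest for 10, where 12.1% of all probe sets were lowest. The SD among Lov-treated tumors was smaller than that among Vhcl-treated ones for 27 of 48 keratins (56.2%), beside 57.6% of all probe sets.

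**Figure D5:**
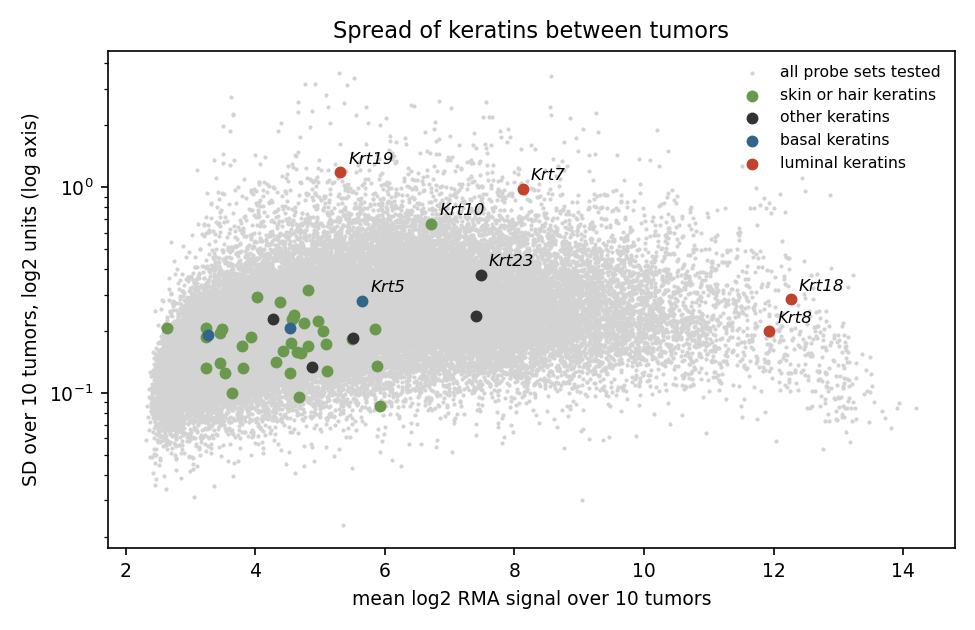
SD over the 10 tumors (y axis, log scale, log2 units) against the mean log2 RMA signal (x axis) of all tested probe sets (gray) and of the 48 keratins, colored by group. Krt19, Krt7 and Krt10 lie highest among the keratins (SD 1.18, 0.98 and 0.66), and Krt8 and Krt18 have high signals at an SD of 0.20 and 0.29.

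Genes that work with keratins were read from lists. The 14 desmosome and plakin genes, which anchor keratin filaments between cells, had a median log2 difference of 0.11 and the 8 hemidesmosome genes, which anchor them to the basement membrane, one of 0.03. Both lists had 0 members at an unadjusted limma p under 0.05, as did the 7 hair follicle genes that are not keratins. Of all probe sets, 3.13% were higher and 2.16% lower at that threshold. Of 18 cornified envelope genes, which build the outer shell of epidermal cells, 0 were higher and 1 was lower at that threshold, with a median of -0.03. Of 15 other intermediate filament genes, 1 was higher and 0 were lower (median -0.03). Among them, Nes, which encodes nestin, read 8.93 to 10.16 in Lov-treated and 7.30 to 9.66 in Vhcl-treated tumors (log2 difference 1.08; limma, adjusted p = 0.928), and Vim, vimentin of mesenchymal cells, read 9.12 to 10.29 and 9.80 to 10.33 in these groups (log2 difference -0.42; limma, adjusted p = 0.958). Of 13 epithelial transcription factor genes, 1 was higher and 1 was lower (median -0.11).

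Among 14 further luminal genes, 1 was higher and 0 were lower at an unadjusted limma p under 0.05, where 3.13% and 2.16% of all probe sets were. The median log2 difference of the 14 was -0.06, beside -0.66 over the 4 luminal keratins. Cd24a, a surface protein of luminal cells, was the 1 higher gene and read 12.07, 12.33, 12.41, 12.48 and 12.61 in Lov A19, A48, A50, A55 and AB10. It read 12.15, 11.40, 12.20, 11.75 and 12.13 in Vhcl A45, A49, A54, A59 and AB11. Lov A19 lay among the Vhcl-treated tumors, and the other Lov-treated tumors lay above them all (log2 difference 0.45; limma, unadjusted p = 0.017, adjusted p = 0.928; exact permutation test, 2-sided p = 0.032). Epcam had a log2 difference of 0.05 and Elf5, a transcription factor of secretory luminal cells, one of -0.10, and the mean over the 14 luminal genes lay at 8.80 to 9.15 in Lov-treated and 8.80 to 9.19 in Vhcl-treated tumors.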

How the data were processed

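Total RNA of 10 mammary tumors, 5 Lov-treated and 5 Vhcl-treated, was measured on 1 Affymetrix mouse array each. Raw intensities had been summarized by the authors with Robust Multi-array Analysis (affy package, per the processing notes of the submitters), and the log2 values so made were deposited. The versions of these tools are not given in the sources used here. No further scaling was applied to the signals, which carry 2 decimals. Arrays have no sequencing depth, so the number of tumors limits the precision.

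The group of each tumor was read from its treatment label. The 64 control probe sets were left out, and limma 3.58.1 in R 4.3.3 compared the groups over the other 45037 (default empirical Bayes moderation, 2-sided, Benjamini-Hochberg adjustment over all of them). Of these, 34945 carried 1 gene symbol, 932 several and 9160 none. Exact permutation tests enumerated 252 assignments of 5 of the 10 tumors, and correlations were tested with 100000 resamples in Python 3.11.15 with scipy 1.17.1. The limma procedure was tested on simulated data.

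The keratins, their classes, the gene lists and the tests were chosen with earlier results of these data known. Named keratins were the 7 luminal and basal ones, the 8 of lowest p, the 6 of largest SD and the 6 of highest mean signal. Other genes were named as the 3 of highest mean in a list or at an unadjusted p under 0.02, Epcam, Acta2 and Trp63 were also partners in the pairs tested, and Wap and Lalba were added after their values were seen. Alternatives were another prior, array weights, a fit without moderation, further scaling of the arrays, the tumor ID prefix or the beta-actin 3′ minus 5′ signal (a measure of RNA degradation) as a covariate, other choices of probe set, a filter on dim probe sets, and leaving out tumors. Promoter sequences came from a RefSeq table of build GRCm38.p6, with the 50 bases after the start removed. No source names a genome build for the arrays, and the paper's PCR, cytometry and imaging values were not used here.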

Additional observations from a re-analysis of the deposited data

Results flagged for a closer look

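Among 17 named keratins in both groups, 34 sets of 5 tumors were searched for a tumor lying far from the other 4 (Dixon's test at the 5% level), and 4 were found. Chance alone marks about 1 set in 20 where sets are not chosen by their spread. Here 6 of the keratins were named for their SD, Krt1 and Krt24 for that alone, so this rate does not apply to them. Krt14 was 4.22 in Lov A50, below the 4.52 to 4.59 of the other Lov-treated tumors. Vhcl A45 stood apart for both epidermal type II keratins Krt1, at 4.76 with the other Vhcl-treated tumors at 3.78 to 4.02, and Krt2, at 3.15 with the others at 2.64 to 2.69. Krt24 was 5.59 in Vhcl AB11, with the others at 4.52 to 4.83, and this tumor also had the highest salivary gland signal. The part of other tissue in these values was not tested.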

How the results depend on the processing

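The number of keratins at an unadjusted limma p under 0.05 was 3. It was 5 with the beta-actin signal as a covariate and 1 among the 16 keratins of mean signal above the median. It was 7 without Vhcl A59 and AB11, but 2 without Lov A19 and Vhcl AB11. Leaving out each tumor in turn gave 1 to 3. Under all settings tried, 0 keratins passed an FDR of 0.25. Krt7 was past the threshold in 5 of 10 fits without 1 tumor and 9 of 11 other settings, Krt31 in 3 and 10, and Krt73 in 3 and 3 (Krt7 failed it with the beta-actin covariate and without moderation), and the sign of each difference was the same in all of them. Krt18 passed it in 4 of 10 and 5 of 12 of such fits. Under the alternatives, each median difference moved by less than the SD between tumors of the list's median signal. Without each tumor in turn they were -0.07 to -0.01 for the family, -0.76 to -0.39 for the luminal, -0.12 to 0.01 for the basal and -0.05 to 0.01 for the skin or hair keratins. Of 12 pairs, 1 (Krt8 with Krt18) passed an adjusted permutation p of 0.05, against 2 with the group means removed, 4 when every probe set of a gene was averaged, and 1 to 1 without each tumor in turn. The sign of some differences that were not past the threshold turned. With the beta-actin covariate, the log2 difference was 0.046 for Krt17, -0.20 for Krt23 and -0.069 for Krt42. Without Vhcl A59 and AB11 it was 0.085 for Krt17, -0.00067 for Krt23, 0.060 for Krt24 and -0.18 for Krt42, and without Lov A19 and Vhcl AB11, 0.010 for Krt17 and 0.018 for Krt24. With arrays centered on the median it was -0.0020 for Krt23. For Krt14 it was 0.034 with all probe sets averaged and 0.25 without shared probe sets. Without each tumor in turn, it was -0.12 to 0.12 for Krt1, -0.021 to 0.18 for Krt5, -0.18 to 0.50 for Krt10, -0.12 to 0.015 for Krt17, -0.13 to 0.15 for Krt23, -0.24 to 0.023 for Krt24 and -0.056 to 0.13 for Krt42. Of the correlations, r was 0.044 for Krt14 with Trp63 and 0.14 for Krt5 with Trp63 with all probe sets averaged, and 0.034 for Krt8 with Krt19 on centered arrays. Without each tumor in turn it was -0.19 to 0.14 for Krt8 with Krt19 and -0.15 to 0.51 for Krt14 with Acta2. The sign of the other named keratins and pairs was the same under all alternatives.

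No paired analysis was possible because no tumor ID occurs in both groups. With 5 tumors a group, small differences were not detectable, and the cause of each change of a count was not tested.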
